A study of Mus musculus with 2 samples.

Results

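The smooth muscle actin thin filament was examined through 10 genes, taken by symbol from the table of 18159 gene symbols: *Acta2*, *Actg2*, *Actb*, *Tpm1*, *Tpm2*, *Cnn1*, *Cald1*, *Tagln*, *Smtn* and *Lmod1*. All 10 were listed, and all were above 0 in both libraries. The RNA came from the tunica muscularis of the jejunum, peeled as a muscle layer from the mucosa, of C57BL/6 mice at 15 days of age. *Dnmt1*-WT mice carried the smMHC-Cre-eGFP transgene, which drives Cre recombinase and eGFP from the *Myh11* promoter, and *Dnmt1*-KO mice carried the same transgene with floxed *Dnmt1* alleles, so that the maintenance DNA methyltransferase is lost in cells that have expressed the smooth muscle myosin heavy chain. The strain label, which names the transgene Tg(Myh11-cre,-EGFP)2Mik and the Dnmt1lox/lox alleles, is the same for both samples, and so is a description giving the knockout genotype. The genotype label and title were used to tell them apart. Each genotype had 1 library, with mice of both sexes behind it, so no difference below could be set against a spread between replicates and no test was made. Values are FPKM, that is, fragments per kilobase of transcript, scaled to the mapped total of its library, which allows levels to be compared between genes. A ratio is the *Dnmt1*-KO FPKM divided by the *Dnmt1*-WT FPKM, and read counts behind single values are unknown.

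The thin filament is a polymer of actin wound with tropomyosin, on which the smooth muscle myosin filaments pull. In gut smooth muscle the contractile actins are the alpha isoform of *Acta2* and the gamma isoform of *Actg2*, the isoform best known from visceral muscle. Troponin has no role in smooth muscle contraction, and the filament carries caldesmon and calponin, which restrain the myosin ATPase. Most of these genes are classical targets of serum response factor and its coactivator myocardin, and they mark the differentiated, contractile state.

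*Dnmt1* itself was listed at 11.6 FPKM in *Dnmt1*-WT and 7.58 FPKM in *Dnmt1*-KO, a ratio of 0.655. The tissue also holds cells without the transgene's activity, and their part in the remaining *Dnmt1* value was not tested. Every thin-filament gene was lower in the *Dnmt1*-KO library, with ratios between 0.427 for *Smtn* and 0.893 for *Cnn1* and a median log2 ratio of -0.55. Of all 16102 genes above 0 FPKM in both libraries, 49.1% had a ratio below 1, and of the 665 genes with a mean of at least 100 FPKM, a level that all 10 reached, 37.7% did. The median log2 ratio was -0.03 over 12758 genes at 1 FPKM or more in both libraries and 0.14 over the 665 abundant genes. A ratio of 0.5 or less was found for 3 of the 10, *Smtn*, *Lmod1* and *Tpm2*, beside 4.98% of all genes and 3.16% of abundant genes. With the limit set at 1.5-fold, 5 of the 10 were lower, beside 12.6% of all genes and 7.67% of abundant genes. None had a ratio above 1, as 50.3% of all genes did, or of 2 or more, as 11.8% did. The call of *Tpm2* at 0.5 is close to the limit, with a ratio of 0.498, and scaling the libraries to their upper quartile put the log2 ratios of *Tpm2* and *Lmod1* at -0.94 and -0.98. In bulk tissue, fewer smooth muscle cells and less RNA per smooth muscle cell cannot be told apart.

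**Figure D1:**
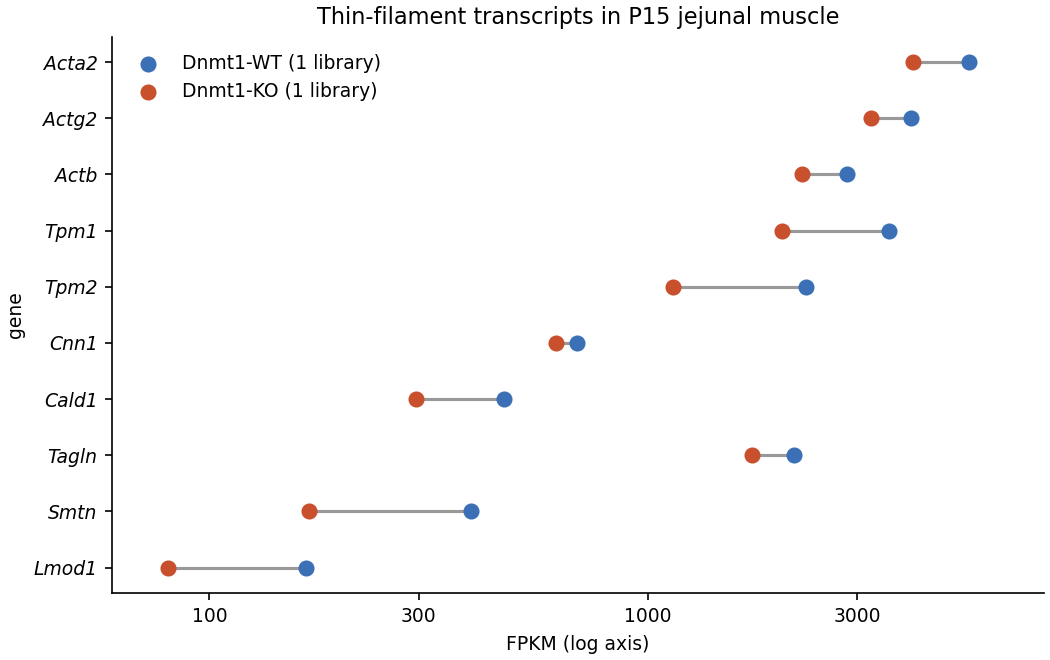
FPKM on a log axis of the 10 thin-filament genes, 1 point per library, with a line joining the 2 libraries of each gene. The *Dnmt1*-KO point lies to the left of the *Dnmt1*-WT point for each gene, with the longest lines for *Smtn*, *Lmod1* and *Tpm2* and the shortest for *Cnn1*.

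Together the 10 genes made up 5.11% of all FPKM listed for *Dnmt1*-WT, with a sum of 21960, and 3.37% for *Dnmt1*-KO, with a sum of 15534. They stood among the most abundant transcripts of the tissue. Thin-filament genes took 6 of the 15 highest ranks by FPKM in *Dnmt1*-WT and 4 of them in *Dnmt1*-KO. *Acta2* held rank 3 in both libraries, and the other 9 had a lower rank in *Dnmt1*-KO. *Tpm2*, for example, stood at rank 10 in *Dnmt1*-WT and rank 45 in *Dnmt1*-KO.

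**Figure D2:**
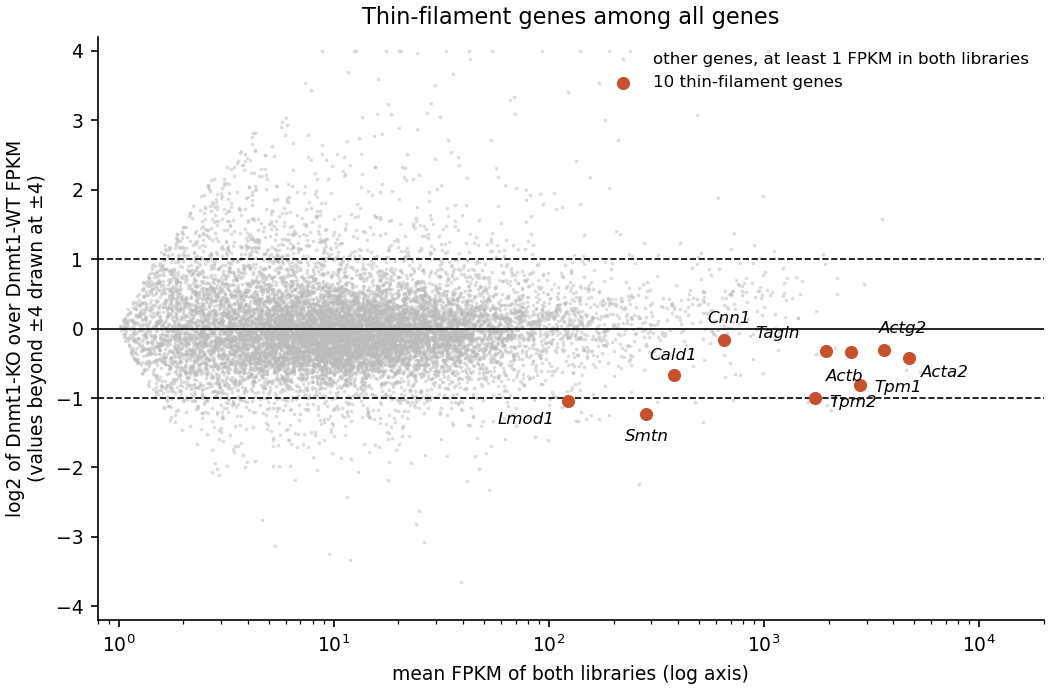
Log2 ratio of *Dnmt1*-KO to *Dnmt1*-WT FPKM against the mean FPKM of both libraries on a log axis, for 12758 genes with at least 1 FPKM in both. Grey points are other genes, red points the 10 thin-filament genes, all below 0, and dashed lines mark a ratio of 2 and of 0.5. Values beyond 4 in either direction are drawn at 4.

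Actin makes up the filament itself. *Acta2*, the smooth muscle alpha actin (chr19:34241090-34255590, minus strand, GRCm38), was listed at 5408 FPKM in *Dnmt1*-WT and 4016 FPKM in *Dnmt1*-KO, a ratio of 0.743. For *Actg2*, the enteric gamma actin (chr6:83512905-83536265, minus strand), the levels were 3974 and 3223 FPKM and the ratio 0.811. *Actb*, the cytoplasmic beta actin of nearly all cells (chr5:142903115-142906754, minus strand), had 2843 and 2244 FPKM and a ratio of 0.789. These ratios lay close together, and their order changed with centring on transcript length or GC content. *Actg1*, the cytoplasmic gamma actin, was listed at 1183 and 1093 FPKM, a ratio of 0.924.

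Within the actin pool the isoforms kept similar proportions, and these shares do not depend on the scale between libraries, though they do on centring by transcript length or GC content. *Acta2* made up 40.3% of the FPKM of all 6 actin genes in *Dnmt1*-WT and 37.9% in *Dnmt1*-KO, while *Actg2* made up 29.6% and 30.4%. The share of *Actb* was 21.2% in both libraries and that of *Actg1* 8.82% and 10.3%. *Acta2* and *Actg2* together went from 69.9% to 68.4% of the pool. Among the contractile isoforms, *Acta2* was 1.36 times as abundant as *Actg2* in *Dnmt1*-WT and 1.25 times in *Dnmt1*-KO, or 1.42 times in *Dnmt1*-KO after centring on transcript length, which turns the direction, and 1.35 times after centring on GC content.

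The actins are close relatives, so reads could have been split between them in counting. The coding sequences of *Acta2* and *Actg2* were identical at 84.2% of alignment positions, gaps included, in the GENCODE M21 transcripts, those of *Acta2* and *Actb* at 82.8%, and those of *Actb* and *Actg1* at 88.7%. Cut into stretches of 50 bases, the longest coding transcript of *Actg2* shared none with any other gene model, *Acta2* shared 0.352%, and *Actb* shared 14.2% with 18 other gene models. *Lrrc58*, which shared the most with *Actb*, was itself listed at 21.2 and 19.9 FPKM.

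Tropomyosin lies along the actin strands and sets where myosin can bind. *Tpm1* (chr9:67022590-67049406, minus strand) had 3558 FPKM in *Dnmt1*-WT and 2018 FPKM in *Dnmt1*-KO, a ratio of 0.567. *Tpm2* (chr4:43514711-43523765, minus strand), which encodes beta tropomyosin, had 2299 and 1144 FPKM. Both tropomyosins of contractile filaments were therefore lower by a larger factor than either contractile actin. Per FPKM of *Acta2* and *Actg2*, the 2 tropomyosins gave 0.624 FPKM in *Dnmt1*-WT and 0.437 FPKM in *Dnmt1*-KO, which is 0.700 times the *Dnmt1*-WT value.

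The other tropomyosin genes stood on the opposite side. *Tpm3*, whose products serve the cytoskeleton of most cells, was listed at 51.7 FPKM in *Dnmt1*-WT and 90.7 FPKM in *Dnmt1*-KO, a ratio of 1.75. *Tpm4*, likewise mainly cytoskeletal, was listed at 68.3 and 111 FPKM, a ratio of 1.62. *Tpm1* and *Tpm2* provided 98.0% of the tropomyosin pool in *Dnmt1*-WT and 94.0% in *Dnmt1*-KO, and for each FPKM of *Tpm3* and *Tpm4* there were 48.8 and 15.7 FPKM of the contractile pair. *Tpm1* also makes non-muscle forms by alternative promoters and splicing, which a value per gene does not separate. The table counted 9 *Tpm1* variants in *Dnmt1*-WT and 10 in *Dnmt1*-KO, and 6 and 5 for *Tpm2*.

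**Figure D3:**
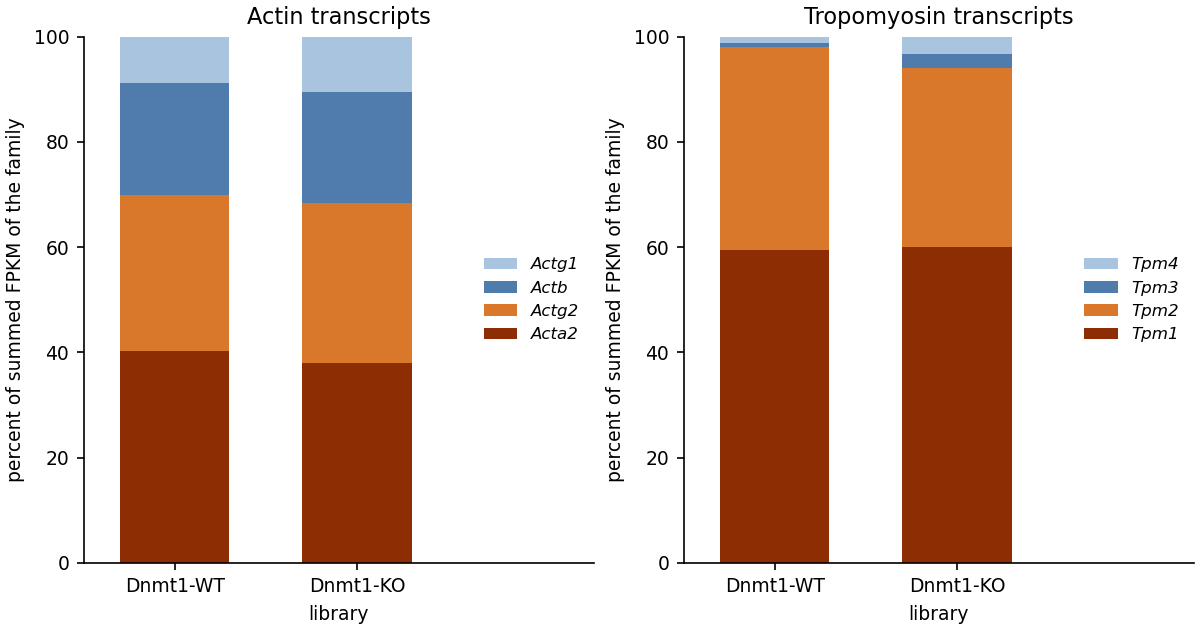
Share of each isoform, in percent of the summed FPKM of its family, in either library, for actins on the left and tropomyosins on the right. *Acta1* and *Actc1* are included in the actin sum but too low to be drawn, and *Tpm3* and *Tpm4* take 0.865% and 1.14% in *Dnmt1*-WT and 2.70% and 3.29% in *Dnmt1*-KO.

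Calponin and caldesmon are the inhibitory proteins of the filament. *Cnn1* (chr9:22099216-22109630, plus strand), which encodes the smooth muscle calponin, was listed at 690 FPKM in *Dnmt1*-WT and 616 FPKM in *Dnmt1*-KO, the smallest difference of the 10. *Cald1* (chr6:34598500-34775473, plus strand), the caldesmon gene, was listed at 470 FPKM and 296 FPKM, a ratio of 0.631. These genes, both coding for brakes on actomyosin, thus differed by unlike factors. Relative to *Acta2* and *Actg2*, *Cnn1* was 1.16 times its *Dnmt1*-WT value and *Cald1* 0.818 times. Relative to *Tpm1* and *Tpm2*, *Cald1* was 1.17 times its *Dnmt1*-WT value. Caldesmon has a smooth muscle form and a short form found in most cells, both from the same gene, and the single value covers both.

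*Tagln* encodes SM22alpha, a calponin-related actin-binding protein that marks smooth muscle (chr9:45929619-45936058, minus strand). It was listed at 2157 FPKM in *Dnmt1*-WT and 1727 FPKM in *Dnmt1*-KO, a ratio of 0.801, close to that of the actins. Relative to *Acta2* and *Actg2* its level was 0.230 and 0.239. Of the 50-base stretches of its longest coding transcript, 48.3% also occur, on either strand, in 2 other gene models of GENCODE M21, 44.5% in *Gm48529*. *Gm48529* was not among the gene symbols listed. Part of the *Tagln* value may rest on shared reads.

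The paralogs of *Cnn1* and *Tagln*, which are also expressed outside smooth muscle, were higher in the *Dnmt1*-KO library. *Cnn2* had 120 FPKM in *Dnmt1*-WT and 159 FPKM in *Dnmt1*-KO, *Cnn3* had 98.2 and 118 FPKM, and *Tagln2* had 118 and 176 FPKM. *Tagln3*, a neuronal relative, was listed at 18.9 and 29.8 FPKM. The smooth muscle members still led each family, but by less. *Cnn1* was 3.17 times *Cnn2* and *Cnn3* summed in *Dnmt1*-WT and 2.23 times in *Dnmt1*-KO, and *Tagln* was 18.3 times and 9.80 times *Tagln2*.

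*Smtn* and *Lmod1* had the lowest ratios as listed. Centring on transcript length put *Tpm2*, at a log2 ratio of -1.04, below *Lmod1*, at -0.98. *Smtn* (chr11:3517523-3540612, minus strand), which encodes smoothelin, an actin-associated protein typical of fully differentiated contractile cells, was listed at 395 FPKM in *Dnmt1*-WT and 169 FPKM in *Dnmt1*-KO. *Lmod1* (chr1:135324807-135368065, plus strand) encodes leiomodin 1, a nucleator of actin filaments in smooth muscle, and its levels were 166 and 80.4 FPKM, a ratio of 0.485. Their levels relative to *Acta2* and *Actg2* were 0.554 and 0.628 times those of *Dnmt1*-WT. These are the least abundant members of the list, but neither is near the lower end of the scale. Of the 50-base stretches of the *Smtn* transcript, 14.8% also occur, on either strand, in *Gm11946*, which was not among the gene symbols listed. *Lmod1* shared none with another gene model.

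Among the relatives of these genes, *Tmod1*, a tropomodulin that caps the pointed end of the filament, was also lower, at 20.2 FPKM in *Dnmt1*-WT and 8.75 FPKM in *Dnmt1*-KO, a ratio of 0.432. *Lmod1* and *Tmod1* kept a like proportion, with 8.19 and 9.19 FPKM of *Lmod1* per FPKM of *Tmod1*. *Tmod2* and *Tmod3* had ratios of 0.973 and 1.12. *Smtnl2*, a smoothelin-like gene, was higher, at 9.10 and 14.4 FPKM. Over the 5 families, 11 of the 15 relatives above 0 in both libraries had a ratio above 1, beside 50.3% of all genes, and 4 below 1, namely *Actg1*, *Tmod1*, *Tmod2* and *Tmod4*.

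The upstream sequence of these genes was read from the RefSeq promoter windows of GRCm38.p6, of which the 250 bases before the annotated start were used. Windows were found for 7 of the 10, with 2 for *Cald1*, and not for *Actg2*, *Tagln* and *Actb*. RefSeq starts need not be the outermost ones, so each window overlaps the gene's GENCODE M21 span, and those of *Smtn* and the second of *Cald1* lie wholly inside it, before an internal start. The binding site of serum response factor, the CArG box, is formed by 2 C, a core of 6 A or T and 2 G, and reads the same pattern on both strands. No window held an exact CArG box, which 1.47% of all 32851 windows do. Allowing 1 core base other than A or T, as in 8.59% of all windows, *Acta2* had 2 matches and the other 6 genes none. These matches lie at 84 to 75 and at 34 to 25 bases before the RefSeq start. They are printed in capitals with 10 bases on each side, as the only such matches in the windows of the 7 genes. The printed stretches are chr19:34255438-34255467 and chr19:34255388-34255417 on the minus strand.
*Acta2* distal: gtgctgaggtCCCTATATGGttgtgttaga
*Acta2* proximal: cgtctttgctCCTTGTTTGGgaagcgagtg

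CpG dinucleotides, the sites that DNMT1 methylates, were counted in the same windows. *Tpm1* had 19 and *Tpm2* 17, *Smtn* 7, *Lmod1* 6, *Cald1* 5 and 4, *Acta2* 4 and *Cnn1* 3. Over all windows the median was 6, with quartiles of 2 and 16, so the tropomyosin genes lay above the upper quartile and the rest between the quartiles. The windows of the genes with the lowest ratios as listed, *Smtn* and *Lmod1*, and of the gene with the highest, *Cnn1*, are printed for comparison. They are given without bases of annotated UTR exons and with CpG in capitals. *Smtn* is chr11:3539324-3539542 on the minus strand with 6 of its CpG left, *Lmod1* chr1:135324563-135324806 and *Cnn1* chr9:22099003-22099215, both on the plus strand. Methylation was not analysed here, and a CpG count says nothing of whether a site is methylated.
*Smtn* upstream: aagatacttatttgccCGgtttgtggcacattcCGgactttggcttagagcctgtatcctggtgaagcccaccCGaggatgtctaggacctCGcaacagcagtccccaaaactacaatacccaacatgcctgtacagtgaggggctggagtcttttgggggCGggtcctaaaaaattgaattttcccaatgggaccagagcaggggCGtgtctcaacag
*Lmod1* upstream: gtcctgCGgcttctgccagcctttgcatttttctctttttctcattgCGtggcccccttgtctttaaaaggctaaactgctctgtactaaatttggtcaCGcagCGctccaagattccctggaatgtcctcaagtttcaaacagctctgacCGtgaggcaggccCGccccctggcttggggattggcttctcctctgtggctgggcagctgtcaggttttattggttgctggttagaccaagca
*Cnn1* upstream: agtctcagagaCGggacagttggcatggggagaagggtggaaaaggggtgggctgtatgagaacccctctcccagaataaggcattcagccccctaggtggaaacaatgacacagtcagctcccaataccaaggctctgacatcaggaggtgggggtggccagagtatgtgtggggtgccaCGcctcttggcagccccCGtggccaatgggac

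The number of transcript variants per gene did not separate the libraries. It was the same in both for 7 of the 10, beside 72.9% of genes at 1 FPKM or more in both libraries and 89.8% of abundant genes. Of the other 3, *Tpm1* and *Smtn* had 1 variant more in *Dnmt1*-KO, with 5 and 6 variants for *Smtn*, and *Tpm2* had 1 fewer. *Acta2*, *Actg2*, *Actb* and *Tagln* had 1 variant each, *Cnn1* and *Lmod1* 2, and *Cald1* 3. The table does not name the variants.

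The thick-filament side and the regulators of these genes are given for orientation. *Myh11*, the smooth muscle myosin heavy chain, was listed at 2685 FPKM in *Dnmt1*-WT and 1256 FPKM in *Dnmt1*-KO, so that *Acta2* and *Actg2* outnumbered it by 3.49 to 1 and 5.77 to 1 in FPKM. *Tpm1* and *Tpm2*, at 2.18 and 2.52 FPKM per FPKM of *Myh11*, and *Smtn*, at 0.147 and 0.134, lay nearer to the myosin proportion. *Mylk*, the myosin light chain kinase gene, was listed at 2832 and 1254 FPKM. Of the 4 genes listed for serum response factor and its coactivators, 2 were lower, beside 49.1% of all genes. These were *Srf* and *Myocd*, with ratios of 0.583 and 0.626. The 2 higher ones were *Mkl1* and *Mkl2*, which encode myocardin-related factors, with ratios of 1.21 and 1.46. Among 38 other genes with a mean of at least 1000 FPKM, those with a log2 ratio closest to the thin-filament median were *Myl9* (-0.60), *Myl6* (-0.63), *Csrp1* (-0.37), *Des* (-0.30) and *Eef1a1* (-0.27), a likeness that rests on 2 libraries only. The first pair code for myosin light chains, *Csrp1* for a LIM protein of actin bundles, *Des* for desmin and *Eef1a1* for a translation elongation factor.

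Actin filaments of smooth muscle are anchored in dense bodies and plaques. Of 18 genes listed for these anchors and crosslinkers, 13 had a ratio below 1, beside 49.1% of all genes and 37.7% of abundant genes. The other 5 were above 1, and the median log2 ratio was -0.27 when 0.1 is added to each FPKM. *Pdlim3*, a LIM protein that binds alpha-actinin, was lowest, at 431 FPKM in *Dnmt1*-WT and 207 FPKM in *Dnmt1*-KO. *Flna*, the filamin A crosslinker, was listed at 1205 and 770 FPKM, and *Csrp1* at 1973 and 1529 FPKM. *Flnc*, the muscle filamin, was the highest, with a ratio of 1.57. The list's median thus lay between that of the thin-filament genes and that of the table, while single anchors spread over both.

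Genes for actin turnover, which bind monomers, cap, sever or nucleate filaments, showed no common direction. Of the 23 listed genes, 16 had a ratio above 1, beside 50.3% of all genes, and 7 below 1. Their median log2 ratio was 0.07. Scaling each library to its FPKM sum turned that median to -0.03. *Tmsb4x*, a monomer-sequestering thymosin, was listed at 862 FPKM in *Dnmt1*-WT and 1582 FPKM in *Dnmt1*-KO, and *Pfn1*, a profilin, at 909 and 1043 FPKM. *Twf2*, a twinfilin, had the highest ratio, 2.38, from 5.04 and 12.0 FPKM, and *Cap2*, a cyclase-associated protein of muscle, the lowest, 0.486, from 52.1 and 25.3 FPKM.

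Thin-filament genes of striated muscle were higher in the *Dnmt1*-KO library. Of the 12 listed, 11 were above 0 in both libraries and all of these had a ratio above 1, 8 of them of 2 or more. Of all genes, 50.3% had a ratio above 1 and 11.8% of 2 or more. *Tnni3*, the cardiac troponin I gene, was listed at 0 in *Dnmt1*-WT and at 2.01 FPKM in *Dnmt1*-KO. The levels were low except for *Tnnt2*, the cardiac troponin T gene, at 239 and 329 FPKM. *Tnnc2*, the fast troponin C gene, had 0.51 FPKM in *Dnmt1*-WT and 13.5 FPKM in *Dnmt1*-KO, and *Acta1*, the skeletal alpha actin gene, 5.17 and 12.2 FPKM. *Tnnt1*, the slow troponin T gene, was listed at 5.66 and 12.4 FPKM. *Actc1*, the cardiac actin gene, had the lowest ratio, 1.26, at 0.90 and 1.13 FPKM. *Acta1* made up 0.0385% of the actin pool in *Dnmt1*-WT and 0.115% in *Dnmt1*-KO. Of the 6 skeletal muscle fibre markers in the table, 5 were below 1 FPKM in both libraries. *Myh2* and *Mb* were higher in *Dnmt1*-KO, at 0.13 and 0.77 FPKM and at 0.06 and 0.32 FPKM, *Ttn* was listed at 0 and 0.06 FPKM, *Myh1* at 0.06 and 0.05 FPKM and *Myod1* at 0 in both libraries. *Ckm*, the muscle creatine kinase gene, was listed at 96.7 and 41.4 FPKM. The part of skeletal muscle in the striated genes was not tested.

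**Figure D4:**
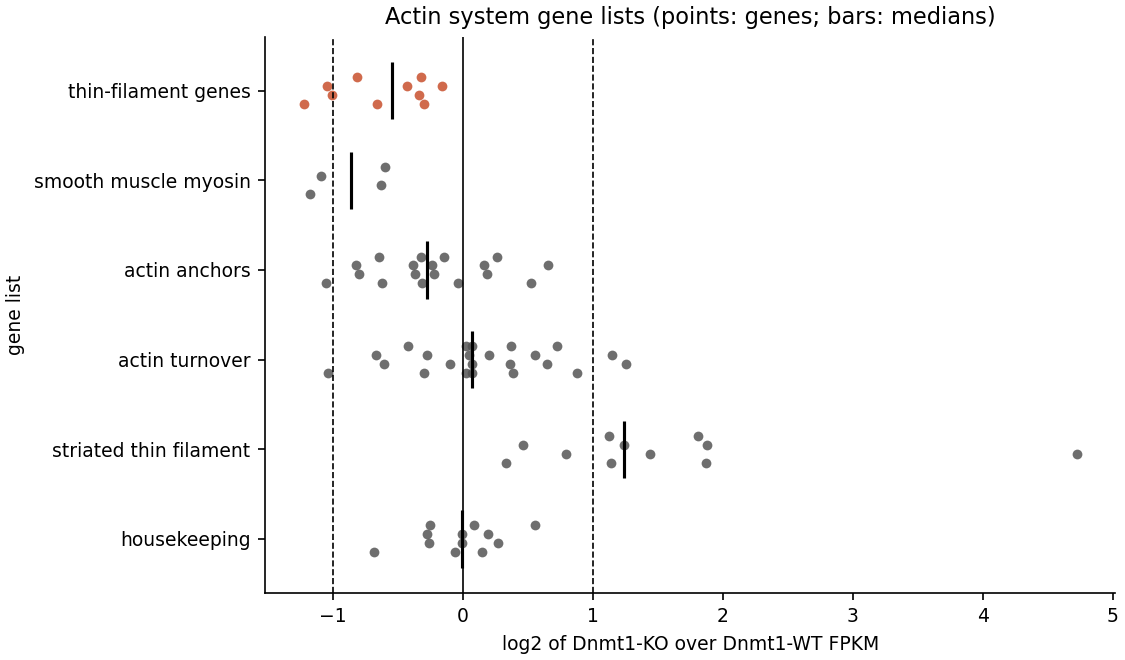
Log2 ratio of *Dnmt1*-KO to *Dnmt1*-WT FPKM for the genes of 6 lists, 1 point per gene above 0 FPKM in both libraries and a bar at each list's median. Dashed lines mark a ratio of 2 and of 0.5. The thin-filament and myosin genes lie left of 0, housekeeping genes around 0 and striated thin-filament genes to the right.

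Marker genes of the cell types in the muscle wall and of neighbouring tissue differed along with these values. For comparison, 50.3% of all genes had a ratio above 1 and 49.1% below 1. Of 9 smooth muscle markers outside the thin-filament list, 7 were lower. The 9 summed to 12653 FPKM in *Dnmt1*-WT and 7360 FPKM in *Dnmt1*-KO. They include *Myh11*, *Mylk*, *Myl9*, *Myocd* and *Des*, already described above, so the sum is not separate from those values. Of the markers not described above, *Synm* and *Kcnmb1* were lower, with ratios of 0.420 and 0.849. *Itga8* and *Hhip* were higher, with ratios of 2.29 and 1.39. Markers of leukocytes were higher for 8 of 8 genes, with sums of 30.4 and 98.7 FPKM, and those of macrophages for 9 of 9, with sums of 147 and 508 FPKM. For adipocytes 7 of 7 genes above 0 in both libraries were higher, *Lep* being at 0 in *Dnmt1*-WT, and the sums were 111 and 1208 FPKM, or 6.90 and 333 FPKM without *Fabp4*. Fibroblast markers were higher for 6 of 8 genes, with sums of 3341 and 5106 FPKM, endothelial markers for 7 of 7, with 55.1 and 134 FPKM, and enterocyte markers for 7 of 9, with 484 and 1042 FPKM. Enteric neuron markers summed to 584 and 695 FPKM, with 6 of 9 higher, and enteric glia markers to 76.2 and 111 FPKM, with 5 of 6 higher but sums of 71.4 and 75.8 FPKM without *Gfap*, while the 3 markers of interstitial cells of Cajal were all lower, with sums of 124 and 104 FPKM. The part of tissue makeup in the lower thin-filament levels and in the higher levels of their paralogs was not tested. For the 12 housekeeping genes the median log2 ratio was -0.01, with 7 below 1 and 5 above 1.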

How the data were processed

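mRNA was measured in 1 *Dnmt1*-WT and 1 *Dnmt1*-KO library prepared with the TruSeq kit from mirVana RNA. The submitters' processing notes name TopHat 1.4.1, Cufflinks 2.0.2 and mm10 (GRCm38). The deposited table gives FPKM computed by the authors, the number of transcript variants found, and a column of fold differences by the authors (a ratio), which was not used. Depth per gene is unknown and no interval is given, and the smallest nonzero value was 0.03 FPKM.

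Plain ratios without rescaling were taken, and 0.1 was added to each FPKM for list medians. No test was made. Calls were ratios of 0.5 or less, 1/1.5 or less and below 1, and of 2 or more and above 1. The members and gene lists were chosen with earlier results of these data known. All 10 members are named. From other lists described gene by gene, at most 4 further genes were chosen, by the highest mean FPKM of both libraries and the highest and lowest ratio, *Acta1* having the highest ratio of the actins. *Myh11*, given for orientation, and *Synm*, *Kcnmb1*, *Itga8* and *Hhip*, the smooth muscle markers not described earlier, fell outside this rule. *Tnni3*, *Lep*, *Gfap*, *Fabp4*, *Tmod4* and the 6 skeletal muscle markers were chosen after their values were seen. Alternatives were 6 scalings, pseudocounts, filters on low values, leaving out *Actb*, and centring on transcript length and GC content in 10 bins, for which 95.7% of 12758 genes had a transcript in GENCODE M21. Scalings and fold calls were tested on simulated data with known changes. Python 3.11.15, numpy 2.4.6, pandas 2.3.3 and matplotlib 3.10.9 were used.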

Additional observations from a re-analysis of the deposited data

How the results depend on the processing

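All 10 thin-filament genes kept a ratio below 1 with centring on transcript length and on GC content. They also did under each of 6 scalings and both pseudocounts, but these could not have turned a direction. Each scaling shifts all genes alike, by between -0.10 and 0.06 on the log2 scale. The smallest difference of the 10, -0.16 for *Cnn1*, is larger than that. Adding the same pseudocount to both libraries cannot take a ratio across 1. With no replicates, a value was taken as moved when it differed by 0.1 or more on the log2 scale, and 16 of 100 such values for single genes did. Scaling to the FPKM sum moved all 10 genes by its constant shift, and the other scalings and the pseudocounts moved none. Centring on transcript length moved *Actg2*, *Actb*, *Cald1* and *Tagln*, and centring on GC content moved *Cald1* and *Smtn*. The median log2 ratio of the 10 was -0.65 with each library divided by its FPKM sum, which shifts all genes by -0.10, and -0.66 without *Actb*. The number of thin-filament genes with a ratio of 0.5 or less was 1 after upper quartile scaling, *Smtn* alone, and 2 after median centring, trimmed mean or housekeeping scaling, where *Tpm2* passed the limit no longer. The median of the skeletal muscle markers was -1.22 when genes needed at least 1 FPKM in both libraries, against 0.34, since fewer genes were left. The share of actin taken by *Acta2* differed by -2.39 percentage points over 6 actin genes and by -2.23 over the muscle actins (*Dnmt1*-KO minus *Dnmt1*-WT). With centring on transcript length or GC content, chosen for the shares after seeing the data, the first was -0.043 and -0.95 and the second 0.97 and -0.23, and *Acta2* was 1.42 and 1.35 times *Actg2* in *Dnmt1*-KO, so the shift within the actin pool rests on leaving these uncorrected. No paired analysis was possible because each genotype has 1 library. Depth per gene is unknown, which limits values near the lower end of the scale, such as those of most striated thin-filament genes.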
